A study of Mus musculus with 4 samples.

Results

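Smooth muscle and contractile cytoskeleton genes were examined in cultured mouse colon tumour cells. The 10 genes were chosen by name (Acta2, Actg2, Tagln, Cnn1, Cnn2, Myl9, Mylk, Tpm1, Tpm2 and Lmod1), and each matched 1 of the 41457 rows of the deposited count table. Acta2 was picked for its higher counts in the mutant lines, so its values against control are given as a description, with no test, and the intervals beside them state counting error alone. The 4 samples were a control and the mutant lines M8, M32 and M83, all tumour cells labelled as colon tissue and grown in RPMI medium. The lines carry the genotype label ENU mutant, where ENU (N-ethyl-N-nitrosourea) is an alkylating mutagen. The labels do not give the mutations, the parent culture of each line or whether a line is a clone. Each sample has 1 column of poly(A) RNA counts, called a library here, so a single line has no replicate check. Where 4 values of a gene follow each other, their order is control, M8, M32, M83.

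Smooth muscle contracts when myosin light chain kinase, the product of Mylk, phosphorylates the regulatory light chain of myosin, encoded in smooth muscle by Myl9, and the myosin then pulls on actin filaments. Acta2 and Actg2 encode the smooth muscle actins, of which the Acta2 product is typical of vessels and of activated fibroblasts (myofibroblasts) and the Actg2 product of gut and other visceral muscle. Tropomyosins, calponins and transgelin bind along the filaments, and leiomodin starts new ones. Many of these genes are controlled by serum response factor (SRF), which binds a DNA element called the CArG box together with myocardin or a myocardin-related factor (MRTF).

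The total count was between 25818148 (control) and 28879954 (M8), and CPM below are counts scaled to a common library size with TMM, with factors between 0.986 and 1.03. A count of 0 allows up to 3 counts, or 0.118 CPM in control and 0.104 CPM in M83. Epithelial markers summed to 105, 181, 74.4 and 161 CPM, nearly all of it from the keratin genes Krt20 (1914, 3306, 1008 and 3667 counts) and Krt18 (710, 1794, 992 and 911 counts). Of these 16 markers 5 reached 20 counts in any library, and Epcam, Cdx2, Muc2 and Fabp1 had 0 counts in all. Fibroblast markers summed to 2224 CPM in control and between 2749 and 3713 CPM in the lines. Most of this came from the collagen gene Col1a2, at 1704, 1843, 1906 and 1520 CPM. Of the other fibroblast markers, Col3a1 stood at 68.5, 272, 479 and 70.8 CPM. Some were low, with Dcn at 2, 13, 48 and 29 counts, Lum at 0, 0, 8 and 2, and Thy1 at 0 in every library. Leukocyte markers summed to at most 2.27 CPM and endothelial markers to at most 9.34 CPM. Pericyte markers summed to 29.0, 59.1, 105 and 55.1 CPM, mostly from Pdgfrb and Anpep, while the pericyte markers Rgs5 and Higd1b had 0 counts in every library. The part of these other cell types in the values below was not tested, and in a bulk culture fewer cells of a type and less RNA per cell cannot be told apart.

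The 2 smooth muscle actin genes were high together in M8 and M32. Acta2 was 29.7 times its control level in M8 and 74.3 times in M32, and Actg2 22.3 and 21.4 times. In M83 the pair separated, with Acta2 at 7.79 times control and Actg2 at 1.01 times. Cnn1, Myl9 and Lmod1 had at most 4 counts in any library and Tagln at most 19. The cytoskeletal members Tpm1, Tpm2 and Cnn2, which cells other than muscle also express, were abundant everywhere and were at most 1.73 times their control level. Mylk was 1.28 and 1.56 times its control level in M8 and M32 and 0.221 times in M83.

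**Figure D1:**
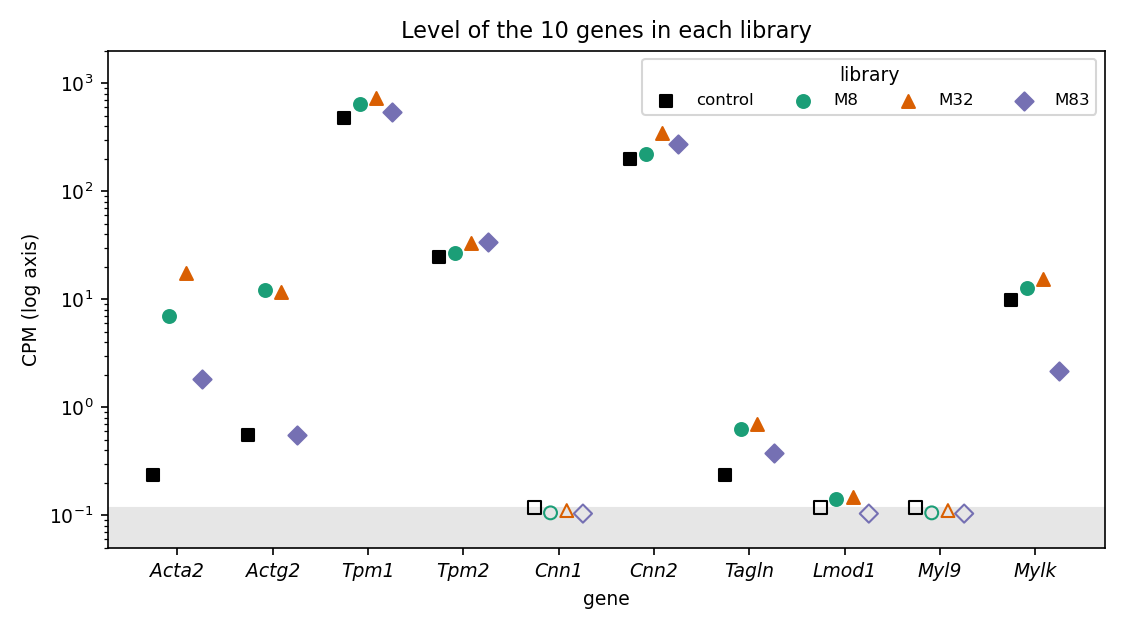
Level of each of the 10 genes in CPM (log axis) in control (squares), M8 (circles), M32 (triangles) and M83 (diamonds), 1 library each. Open symbols are libraries with 3 counts or fewer, drawn at the level of 3 counts, and the grey band lies below 0.118 CPM. Acta2 and Actg2 stand high in M8 and M32, while Cnn1 and Myl9 are open in every library.

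Acta2 (ENSMUSG00000035783), the vascular-type smooth muscle actin gene on the minus strand of chromosome 19 (34241090 to 34255590, GRCm38), had 6, 199, 474 and 53 counts. This is 0.235 CPM in control and 6.99, 17.5 and 1.83 CPM in the lines, so M32 was highest and control lowest. The exact 95% (Clopper-Pearson) interval of the ratio to control ran from 13.4 to 82.0 for M8, from 33.9 to 204 for M32 and from 3.35 to 22.2 for M83, and like the other intervals here it covers counting error only. Among the 13576 genes that passed the filter on low counts, the log2 ratio of Acta2 to control ranked 3 from the top in M32. It ranked 12 in M8 and 166 in M83. These ranks are a description only, since the same values chose the gene. The log2 difference of the 3 lines together from control was 5.19, and 4.18 without M32.

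Actg2 (ENSMUSG00000059430), the visceral smooth muscle actin gene on the minus strand of chromosome 6 (83512905 to 83536265), had 14, 348, 318 and 16 counts. In CPM these are 0.549, 12.2, 11.7 and 0.553, so M8 and M32 were high and level with each other, and M83 lay at the control value. The interval of the ratio to control ran from 13.1 to 41.2 for M8, from 12.5 to 39.5 for M32 and from 0.461 to 2.23 for M83. With the 3 lines taken as 1 group the spread between them was wide (8.17 CPM ± 6.60, SD, n = 3), and the log2 difference of 3.88 (SE 1.73) did not pass (edgeR quasi-likelihood adjusted p = 1).

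The mutant lines could also be set against each other without the control. Acta2 was higher in M32 than in M8 by a ratio of 2.50 (95% interval 2.11 to 2.97), whereas Actg2 was not (0.959, interval 0.821 to 1.12). Between M32 and M83 the ratio was 9.54 (7.17 to 12.9) for Acta2 and 21.2 (12.8 to 37.5) for Actg2. Between M8 and M83 it was 3.81 (2.80 to 5.27) for Acta2 and 22.1 (13.4 to 39.1) for Actg2. The actin pair therefore did not keep 1 ratio across the lines: there were 1.75 Actg2 counts for each Acta2 count in M8, 0.671 in M32 and 0.302 in M83.

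**Figure D2:**
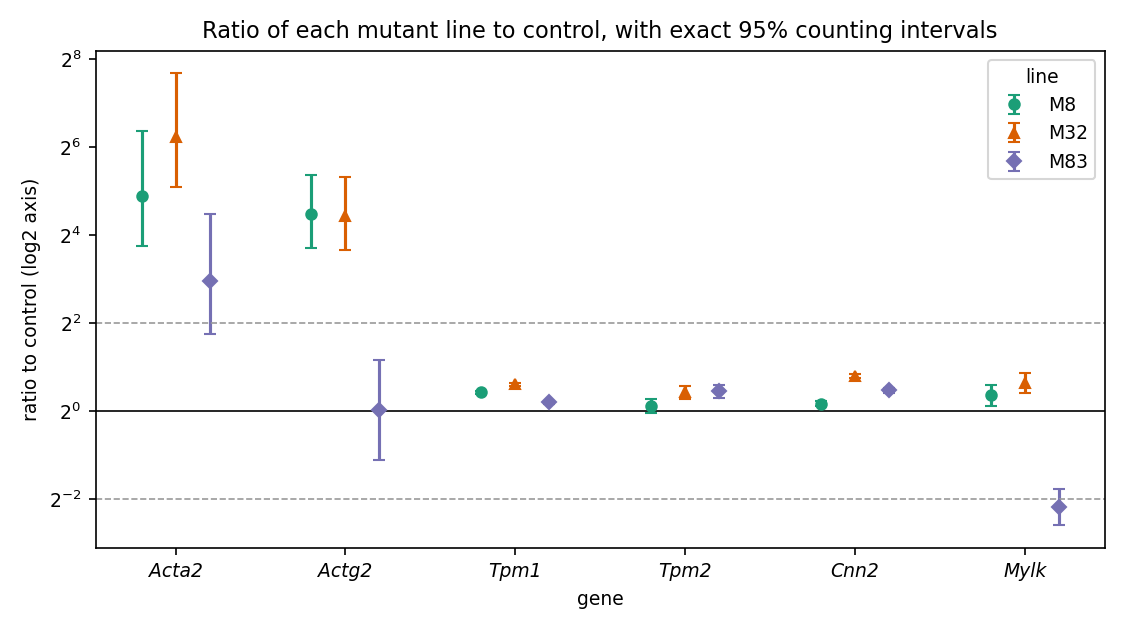
Ratio of each mutant line to control (log2 axis) for the 6 members with at least 50 counts in a library, with M8 as circles, M32 as triangles and M83 as diamonds. Bars are exact 95% counting intervals of 1 library against 1 library, the solid line marks a ratio of 1 and the dashed lines mark 4-fold in either direction. Acta2 and Actg2 lie far above 4-fold in M8 and M32, and Mylk in M83 lies at 0.221.

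By exact sequence, both actin genes can be told apart from the abundant cytoplasmic actins. Stretches that match with a mismatch were not counted, and the placing of reads by the aligner was not tested. Of the distinct stretches of 75 bases in the Acta2 transcripts 0% occurred in a transcript of another gene in GENCODE vM21, and the same held for Actg2. At 50 bases the share was 0.326% for Acta2 and 0% for Actg2. The striated muscle actin genes stayed low, with Acta1 (skeletal) at 12, 12, 30 and 13 counts and Actc1 (cardiac) at no more than 1 count in control, M8, M32 and M83. The genes beside the pair had other orders of the libraries. Stambpl1, next to Acta2 on chromosome 19, had 197, 234, 184 and 197 counts, and Lipa on the other side 309, 234, 560 and 886, so that M83 was highest. Dguok and Stambp, on either side of Actg2 on chromosome 6, had 440, 299, 382 and 442 counts and 400, 378, 374 and 496.

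Per length, smooth muscle actin remained a small part of all actin transcripts. RPKM here are CPM per kilobase of the combined exons of a gene. Acta2 and Actg2 made up 0.016% of the RPKM of 6 actin genes in control (95% exact interval 0.00976 to 0.0247%). The share was 0.401% for M8 (0.368 to 0.436%), 0.566% for M32 (0.527 to 0.607%) and 0.0563% for M83 (0.0438 to 0.0712%). The cytoplasmic actin genes held the rest, with Actb at 2195, 1991, 2023 and 1749 RPKM and Actg1 at 680, 749, 697 and 365 RPKM in control, M8, M32 and M83. Actg1 was thus lower in M83 than in the other libraries, but 37.4% of its stretches of 50 bases occur in other genes, mostly pseudogenes, so its count is uncertain. In M8 the Actg2 level of 7.85 RPKM was above the Acta2 level of 3.18 RPKM, and in M32 both were close, at 7.53 and 7.96 RPKM.

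Among the filament-binding members, the tropomyosin genes were abundant and differed little. Tpm1, whose isoforms serve muscle and non-muscle filaments, had 12092, 18164, 19608 and 15752 counts. All lines lay above control, by ratios of 1.35, 1.53 and 1.15 (log2 difference 0.42, SE 0.245, edgeR quasi-likelihood adjusted p = 1). Tpm2 had 632, 759, 904 and 974 counts, with ratios of 1.08, 1.35 and 1.36 (log2 difference 0.33, SE 0.258, edgeR adjusted p = 1). For Tpm2 the interval of the ratio in M8, 0.967 to 1.20, included 1. Per length Tpm1 held 16.7%, 20.9%, 23.5% and 23.1% of the RPKM of the 4 tropomyosin genes, and Tpm2 between 1.94% and 3.19%. Tpm4, a non-muscle tropomyosin gene, held the largest part, between 64.6% and 71.0%. With the longest transcript in place of all exons the Tpm1 share was 26.7% in control and at most 36.4% (M32) in the lines. The Tpm4 share was then between 45.7% (M83) and 52.4% (control), still the largest. Of the stretches of 50 bases 15.7% in Tpm4 and 23.2% in Tpm3 occur in other genes, so their counts are uncertain.

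Calponins and transgelins, unlike the tropomyosins, showed a split between a muscle isoform at low counts and abundant general isoforms. Cnn1, the calponin of differentiated smooth muscle, had 2, 0, 0 and 1 counts, which is at or below the floor in every library. Cnn2, the calponin of many cell types, had 5071, 6333, 9340 and 7957 counts. The lines stood at 1.12 (M8), 1.73 (M32) and 1.38 (M83) times control, and its group difference did not pass (log2 0.50, SE 0.296, edgeR adjusted p = 1). Cnn3, the acidic calponin, had 9343, 7177, 10245 and 7293 counts, so that Cnn2 held 40.1% of calponin RPKM in control and between 52.1% and 57.4% in the lines. With the longest transcript as length the Cnn2 share was 32.8% in control and between 44.3% and 49.5% in the lines, below Cnn3 in every library. Of the stretches of 50 bases in Cnn3 24.0% occur in other genes, so its count is uncertain. Tagln, the gene of the actin-binding protein transgelin (SM22) and an early smooth muscle marker, had 6, 18, 19 and 11 counts. Its ratio to control was 2.69 for M8 (1.02 to 8.27), 2.98 for M32 (1.14 to 9.11) and 1.62 for M83 (0.548 to 5.33), with an edgeR adjusted p of 1 for the lines as a group. Its paralog Tagln2 held at least 99.7% of transgelin RPKM in each library.

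The low Tagln count has a limit of its own. The noncoding gene Gm48529 on the opposite strand overlaps 1241 exon bases of Tagln, which is 62.4% of them, and Pcsk7 overlaps a further stretch. Gm48529 had 32, 37, 25 and 41 counts. How reads shared by overlapping genes were counted is not given in the sources used here, so the Tagln count is uncertain.

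The genes of the contractile motor and its switch behaved differently from the actins. Myl9, the smooth muscle regulatory light chain gene, had 3, 1, 0 and 1 counts. The light chain genes of other cells, Myl12a and Myl12b, were abundant, with 7034, 10734, 11447 and 8090 counts and 1725, 1144, 2734 and 2118 counts, and Myl9 held at most 0.095% of the RPKM of these light chain genes. Lmod1, the smooth muscle leiomodin gene, had 2, 4, 4 and 0 counts, and the tropomodulin gene Tmod3 held between 99.5% and 99.8% of the RPKM of leiomodins and tropomodulins. Mylk (ENSMUSG00000022836) had 251, 359, 415 and 63 counts, so that M83 stood below the other 3 libraries. Its ratio to control was 1.28 for M8 (1.09 to 1.51), 1.56 for M32 (1.33 to 1.83) and 0.221 for M83 (0.165 to 0.293). M32 exceeded M83 by 7.02-fold (5.38 to 9.31) and M8 exceeded it by 5.79-fold (4.42 to 7.69). Over the 3 lines together the log2 difference was 0.03 (SE 0.904, edgeR adjusted p = 1), and it was 0.49 without M83, -0.17 without M8 and -0.44 without M32.

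Mylk lies on the plus strand of chromosome 16 (34745210 to 35002420), and genes of that chromosome were lower in M83. The median log2 ratio of the other 396 tested genes of chromosome 16 was -0.53 in M83, against 0.00 in M8 and -0.03 in M32. At -2.14 Mylk lay well below that median and ranked 7 from the lowest of the 397 tested genes of the chromosome. Its neighbours Ccdc14 and Hacd2 had 420, 273, 355 and 272 counts and 554, 827, 694 and 539 counts. The part of the chromosome-wide shift in the Mylk value was not tested. For the chromosomes of the other members the medians lay between -0.24 and 0.19 in every line.

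In the fit of the 3 lines against control, 7 of the 10 genes passed the filter on low counts, and Cnn1, Myl9 and Lmod1 did not. Of the 6 tested members other than Acta2, 0 had an adjusted p under 0.05 in edgeR or in DESeq2, and 0 had an unadjusted p under 0.05 in edgeR. Over all 13576 genes edgeR called 0.00737%, which is 1 gene, lower in the lines, and 448 genes had an unadjusted p under 0.05, of which 380 were higher and 68 lower. DESeq2 called 33 genes higher and 4 lower. Acta2, Actg2, Tagln, Cnn2, Tpm1 and Tpm2 lay above control in every line, as did 23.3% of all tested genes, and 0 members lay below control in every line, as did 21.3% of all tested genes. Nothing is read from these counts, since 1 control library is shared and the choice of Acta2 used this contrast. This fit has 2 residual degrees of freedom, and its p-values measure only the spread between the 3 mutant lines.

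A rule of size was applied to pairs of single libraries: at least 4-fold on the log2 scale (prior count 2), at least 50 counts in the higher library and an exact interval that leaves out 2-fold. Acta2 against control is not counted under it, since those values chose the gene. Against control, Actg2 met it as higher in M8, where 0.795% of the genes with enough counts were higher and 0.564% lower, and in M32, where 1.13% were higher and 0.277% lower. In M83 Mylk met it as lower, as did 0.275% of genes, with 1.08% higher. Between lines, Acta2, Actg2 and Mylk met it as higher in M32 than in M83 (0.889% of genes, with 0.689% lower), and Actg2 and Mylk as higher in M8 than in M83 (0.863% of genes, with 1.05% lower). Between M32 and M8 no member met it, where 0.868% of genes were higher and 0.539% lower. With a limit of 2-fold in place of 4-fold, Acta2 also met it as higher in M32 than in M8 and as higher in M8 than in M83. Tpm1, Tpm2 and Cnn2 met it in no pair.

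**Figure D3:**
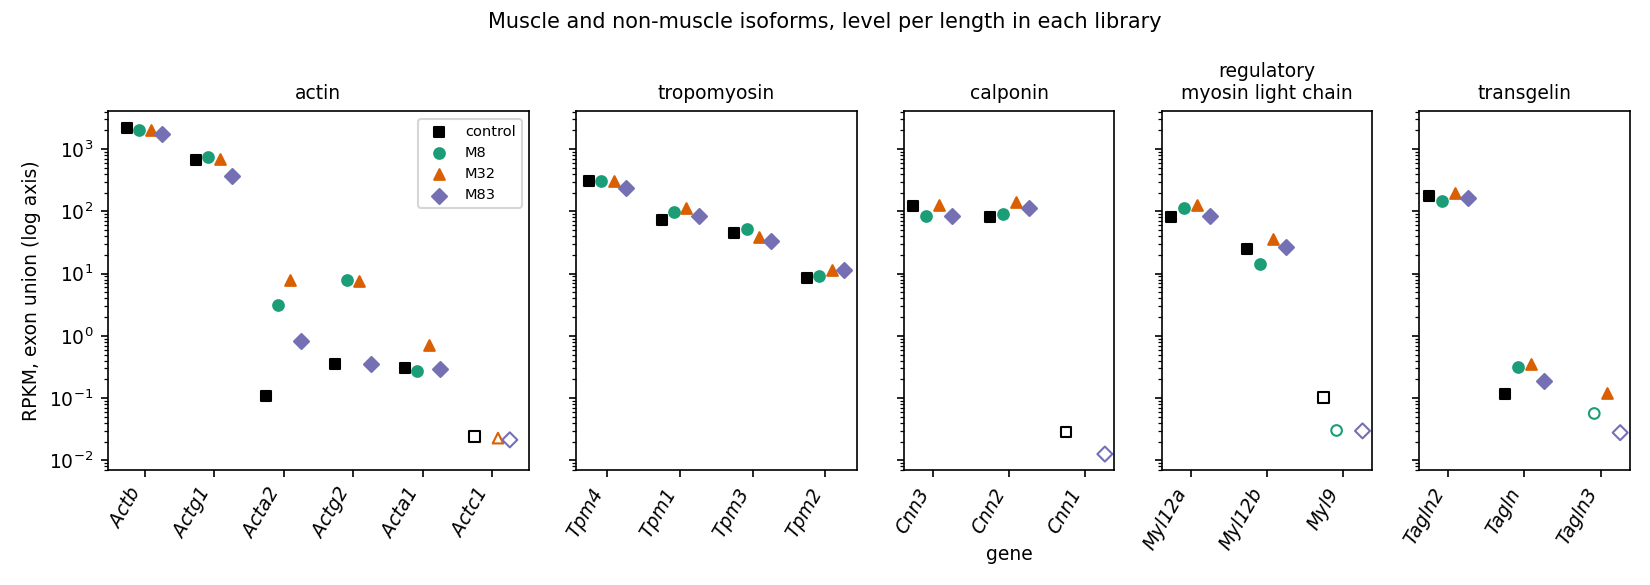
RPKM of muscle and non-muscle members of 5 gene families (log axis) in control (squares), M8 (circles), M32 (triangles) and M83 (diamonds), 1 library each. Open symbols rest on 1 to 3 counts and libraries with 0 counts are not drawn. The general isoforms (Actb, Tpm4, Cnn3, Cnn2, Myl12a and Tagln2) stand at the top of each family, and Acta2 and Actg2 span the widest range between libraries.

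Lists of related genes were read beside all tested genes. Of all tested genes 23.3% were higher than control in all lines and 21.3% lower, with a median log2 difference of 0.02. In edgeR 0.00737% of them passed. The shares below are a description, since the lines share 1 control library and the lists were chosen with earlier results known. Of 30 other genes of smooth muscle 20 were tested and 0 passed in edgeR in either direction. Higher than control in all lines were 6 (30.0%, against 23.3% of all genes) and lower 0, and the median log2 difference was 0.23. Smooth muscle myosin heavy chain, Myh11, had 3 counts in M32 and 0 in the other libraries. Itga8, Ppp1r14a and Kcnmb1 had 0 counts in all of them. Des, the muscle intermediate filament desmin, had 34, 42, 61 and 9 counts, which places M83 lowest as for Mylk. Dmpk, a kinase gene of muscle, had 502, 977, 986 and 827 counts (log2 difference 0.75, SE 0.262, edgeR adjusted p = 1). Ppp1r12b, a myosin phosphatase subunit gene, had 969, 1828, 2039 and 1242 counts, and Fhl2, a LIM-domain cofactor gene, 1426, 2488, 2678 and 1866. In these 3 genes control was lowest in all cases. Smtn, a smooth muscle cytoskeletal gene, was nearly level at 1897, 1804, 2071 and 1898 counts.

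Among 27 genes of non-muscle actomyosin and paralogs 23 were tested and 0 passed. Higher than control in all lines were 7 (30.4%, against 23.3% of all genes) and lower 3 (13.0%, against 21.3%), and the median log2 difference was 0.03. Myh9, the main non-muscle myosin heavy chain gene, had 37024, 59107, 56216 and 35531 counts. Zyx, a focal adhesion gene, had 997, 1410, 1491 and 1438 counts, and Flna, the actin cross-linker filamin A, 38008, 33815, 36444 and 29731. Striated muscle genes were mostly at or near 0: 11 of 37 were tested and 0 passed. Of these 11 genes 6 were higher than control in all lines (54.5%, against 23.3% of all genes) and 1 lower (9.09%, against 21.3%), with a median log2 difference of 0.62. Myod1 and Myog, which direct skeletal muscle differentiation, had 0 counts in every library. Tnnt2, the cardiac troponin T gene, was the exception with 1022, 2080, 1505 and 671 counts, against at most 64 in any other gene of the list.

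Of the listed regulators of the contractile programme 0 passed in edgeR, where 0.00737% of all tested genes did. Of 42 listed 37 were tested, and 12 were higher than control in all lines (32.4%, against 23.3% of all genes) and 1 lower (2.70%, against 21.3%), with a median log2 difference of 0.08. Srf had 2310, 3063, 2637 and 2556 counts, and Mkl1, which encodes MRTF-A, 1727, 2066, 2092 and 2214. Myocd, the gene of myocardin, the SRF partner of differentiated smooth muscle, had 0 counts in every library. Klf4, a repressor of smooth muscle genes, had 4016, 6674, 5665 and 11733 counts, highest in M83. Klf5 had 2446, 2053, 1301 and 1710 counts, and Tgfbr2, a TGF-beta receptor gene, 1545, 2344, 2475 and 3211. Tead3, a partner of YAP, had 1225, 1508, 2093 and 2093 counts.

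All 28 listed targets of SRF and of YAP were tested and 0 passed. Higher than control in all lines were 8 (28.6%) and lower 7 (25%), near the 23.3% and 21.3% of all genes, with a median log2 difference of 0.08. Some targets differed widely from control, in both directions. Thbs1 had 1683, 7757, 15903 and 9884 counts, which is 4.13 (M8), 8.89 (M32) and 5.18 (M83) times control. Egr1 had 18871, 8137, 3253 and 12461 counts, which is 0.386 (M8), 0.162 (M32) and 0.583 (M83) times control. Ctgf, which is driven by YAP and TGF-beta, had 1456, 1580, 3557 and 2530 counts. Ier2, an immediate early gene, had 3217, 3299, 1306 and 1946 counts. Vcl, an SRF target that encodes vinculin, had 5602, 6825, 8022 and 8230 counts. Of 33 myofibroblast and fibroblast genes 27 were tested and 0 passed. Higher than control in all lines were 18 (66.7%, against 23.3% of all genes) and lower 3 (11.1%, against 21.3%). The median log2 difference was 0.90, against 0.02 over all genes. Nothing is read from these values, since 1 control library is shared and the list was chosen with earlier results known. Col6a3, a collagen VI gene, had 168, 1042, 1927 and 239 counts. Col3a1, a fibrillar collagen gene, had 1748, 7748, 12998 and 2047 counts, and Pdgfrb, the PDGF receptor gene of fibroblasts and pericytes, 424, 1250, 2341 and 574. These 3 genes, named for their large differences, had the library order of Acta2, with M32 highest, then M8, M83 and control. The share of all genes with this order was not counted. Other genes of the list had other orders. Tnc had 138, 602, 49 and 706 counts, with M32 lowest, and S100a4 was below control in every line, at 521, 499, 420 and 297 CPM.

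**Figure D4:**
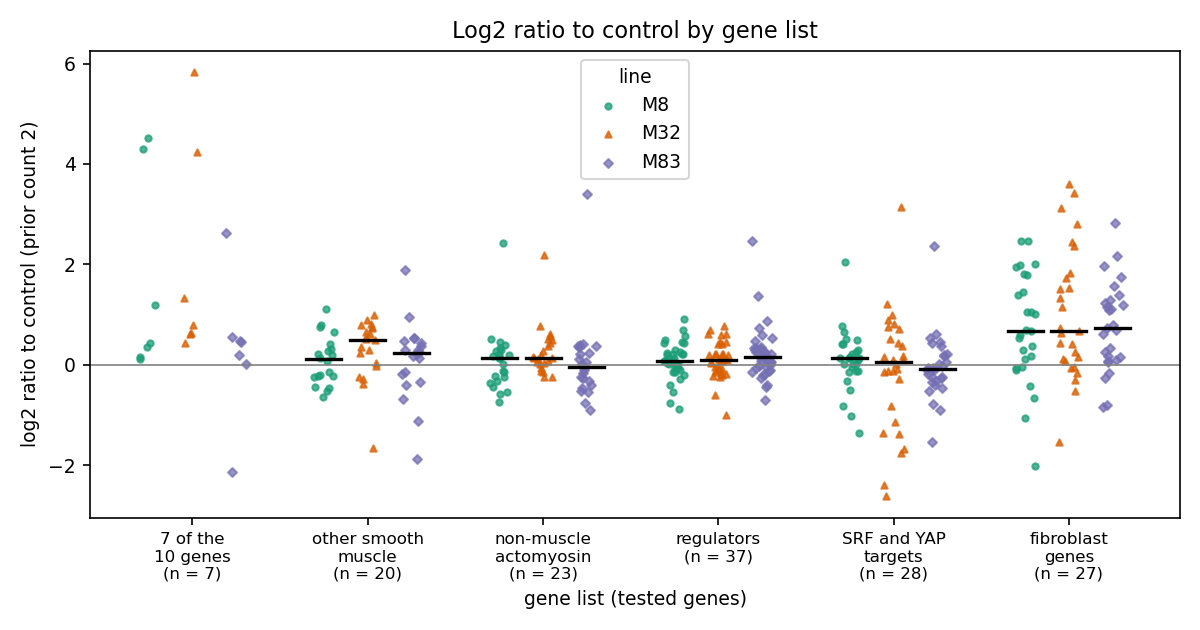
Log2 ratio to control (prior count 2) of the tested genes of 6 lists in M8 (circles), M32 (triangles) and M83 (diamonds), 1 point per gene. Black bars are the medians of the lists other than the first. Acta2 and Actg2 are the points above 4 in M8 and M32, while the medians of the regulators lie between 0.07 and 0.15.

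The genes with a pattern most like that of Acta2 were sought by the distance between their 3 log2 ratios to control and those of Acta2, over 13575 other tested genes and 3 lines that share 1 control. The nearest were Gm49392 (distance 1.12), Aldh1a7 (1.13), Aldh1a1 (1.24), Gm28035 (1.51) and Prelp (1.64), and Actg2 ranked 27. Aldh1a7, a gene of the aldehyde dehydrogenase family, had 10, 281, 340 and 104 counts, and it is a close paralog of Aldh1a1, so that reads may be split between them. Gm49392 and Gm28035 had 0 counts in control. Prelp is a matrix proteoglycan gene. Each of these nearest genes had M32 highest, as Acta2 did, which the search by distance favours.

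Promoter sequences are shown for 3 genes with contrasting levels: Acta2, which of the 10 genes differed most between the libraries, Cnn2, which was abundant, and Myl9, which stayed at the floor. They come from RefSeq (GRCm38.p6), which had an entry for 8 of the 10 genes, and run from 250 bases before the start of transcription to 50 after it, 5′ to 3′ on the strand of the gene. Capitals mark CArG boxes (CC, then A or T at each position of the core, then GG) and matches with 1 other base in the core, on either strand, since the pattern reads the same on both.
Acta2, minus strand, chr19:34255324-34255623: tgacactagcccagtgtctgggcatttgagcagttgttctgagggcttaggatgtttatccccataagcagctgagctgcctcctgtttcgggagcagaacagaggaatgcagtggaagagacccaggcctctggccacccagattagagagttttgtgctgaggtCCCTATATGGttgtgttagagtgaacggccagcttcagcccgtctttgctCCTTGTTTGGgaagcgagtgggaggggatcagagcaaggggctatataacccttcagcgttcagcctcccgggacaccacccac
Cnn2, plus strand, chr10:79988350-79988649: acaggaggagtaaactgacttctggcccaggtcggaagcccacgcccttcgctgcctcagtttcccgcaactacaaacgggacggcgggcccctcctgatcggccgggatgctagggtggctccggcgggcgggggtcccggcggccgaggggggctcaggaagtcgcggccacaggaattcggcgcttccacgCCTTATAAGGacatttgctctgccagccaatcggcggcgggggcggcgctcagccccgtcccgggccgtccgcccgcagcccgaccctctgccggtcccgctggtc
Myl9, plus strand, chr2:156775214-156775513: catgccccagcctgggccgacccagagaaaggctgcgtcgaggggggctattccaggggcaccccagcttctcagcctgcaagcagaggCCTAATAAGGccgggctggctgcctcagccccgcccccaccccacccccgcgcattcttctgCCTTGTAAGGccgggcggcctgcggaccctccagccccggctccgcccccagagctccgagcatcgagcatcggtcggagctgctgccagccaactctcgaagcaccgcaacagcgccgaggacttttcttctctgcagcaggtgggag

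The Acta2 window held no exact CArG box but 2 matches with 1 other base in the core, CCCTATATGG from 84 to 75 bases before the start and CCTTGTTTGG from 34 to 25 bases before it. Exact boxes were present in Cnn2 (CCTTATAAGG, 56 to 47 bases before the start) and in Myl9 (CCTAATAAGG, 161 to 152 bases before it). Thus the silent Myl9 and the abundant Cnn2 both carried an exact box, and Cnn1, Mylk, Tpm1, Tpm2 and Lmod1 carried none in this window. The Mylk window (chr16:34784700-34784999) lies inside the gene as annotated by GENCODE, which starts at 34745210, so it is that of an internal start. The windows of Acta2, Tpm1 and Tpm2 also hold the GENCODE start of the gene (34255590, 67049406 and 43523765), ahead of the RefSeq start. The positions given here count from the RefSeq start and would differ with the GENCODE start. Among all 32851 promoters listed 1.63% held an exact box, and 9.98% held one when 1 other base was allowed. The letters CATTCC, the core of the element that TEAD factors bind, were present on either strand in Acta2, Mylk, Tpm1 and Lmod1, and in 14.7% of all promoters. A match is a description of the letters and says nothing of binding in these cells.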

How the data were processed

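The table used here is the one the authors deposited: unnormalised whole-number counts per gene, with 1 column for each of 4 samples. The series text speaks of triplicates, and nothing says whether a column is a sum of them. Per the labels' protocols, RNA was prepared with RNeasy columns and libraries with NEBNext poly(A) selection, and no molecular identifiers are mentioned. The submitters' processing notes name GRCm38 as the build. The aligner, counter, annotation and strand setting were not given in the sources used. Lengths and positions came from GENCODE vM21, which holds 41434 of the row identifiers.

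The 3 ENU lines were set against the lone control with the quasi-likelihood F-test of edgeR 4.0.16 (R 4.3.3, TMM, filterByExpr, Benjamini-Hochberg over 13576 genes, threshold 0.05). SE is the log2 difference over the root of F. The control is assumed to vary like the lines. DESeq2 1.42.0, other scalings, filters, sizes and lengths were alternatives. Single libraries were compared by size, with exact binomial intervals at 95%. The edgeR fit was tested on simulated data, and the ratios, intervals, rule of size, shares and motif counts were not. Besides the 10 members, the rule named up to 4 genes per list with at least 5 CPM and the largest log2 difference, direct paralogs, and the 5 genes nearest to Acta2, not all of which are reported. Krt18, Krt20, Srf, Mkl1, Myocd, Vcl, Des, Smtn, Myh9, Myh11, Myod1, Myog and the genes at 0 were named as well, after their values were seen. The same holds for Col1a2, Dcn, Lum, Tnc and S100a4. Members and lists were chosen with earlier results of these data known.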

Additional observations from a re-analysis of the deposited data

How the results depend on the processing

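The number of genes past the threshold for the lines against control was 1 in edgeR (lower), 37 in DESeq2 (33 higher, 4 lower) and 2 (lower) with no filter on low counts. It ranged from 1 to 1 when each line was left out in turn. Under each of these alternatives 0 of the tested members other than Acta2 passed, with adjusted p between 0.441 (Actg2 without M83) and 1. The Mylk difference over the 3 lines turned to -0.0070 with no filter, and without 1 line it ranged from -0.44 (without M32) to 0.49 (without M83), with -0.17 without M8. The members that met the rule of size against control were 2 in each line with library size alone, a 2-fold limit or 20 counts, 1 of them in each line being Acta2, whose choice used this contrast. Between lines the 2-fold limit added Acta2 in M32 over M8 and in M8 over M83. Scaling by library size alone moved the log2 ratios of Cnn2 and Tpm1 that involve M83 beyond their counting intervals, without a change of direction. The share of Acta2 and Actg2 among actins was 0.331% in M8 and 0.459% in M32 with the longest transcript as length. With all 4 muscle actins summed the share in control was 0.0275%. With 1 other base allowed in the CArG core 3 members had a match, against 2 with none. No paired analysis was possible because the labels give no replicate numbers and control is 1 library. With 6 Acta2 counts in control, counting error alone spans a wide range for its ratios.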
